A study of Rattus norvegicus with 8 samples.

Results

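The dual-specificity MAP kinase phosphatases are the Dusp genes whose products remove phosphate from both the threonine and the tyrosine of the activation loop of MAP kinases. The 10 members described here are Dusp1, Dusp2, Dusp4, Dusp5, Dusp6, Dusp7, Dusp8, Dusp9, Dusp10 and Dusp16, taken by gene symbol, and each was measured by 1 probe set among the 14506 genes of the array. Transcripts were measured on 1-colour Affymetrix arrays in total RNA of whole liver from male Wistar rats, an outbred strain, aged 6 to 10 weeks. Each liver was perfused, that is, kept alive outside the body by Krebs-Henseleit buffer pumped through its vessels. The 4 normoosmotic samples received buffer of 305 mosm/L and the 4 hypoosmotic samples buffer of 225 mosm/L, and all 8 are labelled 120 min. The series describes perfusions of up to 180 min, and no genotype, drug or hormone is named for either group. Whether each sample is a different animal is not said in the labels, and p-values therefore measure the spread among these 8 samples, part of which may be technical.

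MAP kinases (ERK, JNK and p38) relay signals from growth factors, stress and cell swelling to the nucleus, and they stay active only while both loop residues are phosphorylated. The phosphatases fall into a nuclear group that is transcribed within minutes of a stimulus (Dusp1, Dusp2, Dusp4, Dusp5), a cytoplasmic group that prefers ERK (Dusp6, Dusp7, Dusp9) and a group that prefers JNK and p38 (Dusp8, Dusp10, Dusp16). In liver, swelling of hepatocytes by hypoosmotic buffer is known to activate ERK and p38, and Dusp1 is known as an early gene of stress, glucocorticoids and cAMP. The comparison asks how the transcripts of these phosphatases differ when the perfusate is made hypoosmotic.

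Promoters are shown for the 2 members whose transcripts fell, Dusp1 and Dusp10, so that their sequences can be read beside the values below. They come from RefSeq (build GRCr8, plus strand for both genes), cover the 250 bases before the start site and are written 5′ to 3′. Capitals mark the cAMP response element TGACGTCA or its shorter form TGACG, the E-box CACGTG, the GC box GGGCGG and the CCAAT box CCAAT, each on either strand. Dusp1 lies at chr10:17184603-17184852 and Dusp10 at chr13:98145643-98145892.
Dusp1: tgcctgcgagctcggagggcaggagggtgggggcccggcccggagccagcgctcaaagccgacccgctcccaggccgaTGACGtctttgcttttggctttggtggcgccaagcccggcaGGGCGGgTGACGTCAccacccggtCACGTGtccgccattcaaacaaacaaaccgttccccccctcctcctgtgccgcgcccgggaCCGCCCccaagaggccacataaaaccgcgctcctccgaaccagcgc
Dusp10: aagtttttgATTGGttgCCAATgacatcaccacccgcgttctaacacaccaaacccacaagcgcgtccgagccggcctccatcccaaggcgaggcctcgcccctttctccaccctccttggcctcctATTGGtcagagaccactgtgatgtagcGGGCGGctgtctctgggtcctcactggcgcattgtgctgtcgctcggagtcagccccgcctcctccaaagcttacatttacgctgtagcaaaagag

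The Dusp1 window holds a full cAMP response element at −124 to −117, a further short form at −172 to −168 and an E-box at −107 to −102, counted from the start site. The Dusp10 window holds neither element nor an E-box, but 3 CCAAT boxes and 1 GC box. Sequences matched 9 of the 10 members, all but Dusp4. Of these 9, only Dusp1 held TGACGTCA, which 1.59% of 33469 promoter windows of the same length hold. The short form TGACG, which every full element contains, was found in Dusp1, Dusp2, Dusp5 and Dusp16 (18.2% of all windows). The E-box was found in Dusp1 and Dusp2 (5.59% of all windows). The GC box stood in 7 members (30.5% of windows), and the CCAAT box in Dusp6, Dusp7, Dusp10 and Dusp16 (34% of windows). The AP-1 site TGACTCA (4.05% of windows) and the TATA box TATAAA (12.9%) were found in 0 members, both strands searched. The Dusp8 window held none of the 7 motifs. These are matches of letters, not measured binding.

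Dusp1 and Dusp10 fell in hypoosmotic liver, and no member rose past the test. Of the 10 members 2 were called lower and 0 higher at an adjusted p under 0.05 (limma, Benjamini-Hochberg over all 14506 genes). Without adjustment, 5 of the 10 lay under 0.05, as did 2113 of all 14506 genes. Over all genes tested, 1.42% were called lower and 0.558% higher. The median log2 change of the members was −0.16, with 7 below 0 and 3 above, beside a median of 0.04 over all genes. All changes are log2 differences, hypoosmotic minus normoosmotic, of the authors' log2 values. The groups were fully apart, every hypoosmotic value lying below every normoosmotic one, in 3 members, Dusp1, Dusp8 and Dusp10, as in 5.05% of all genes, and fully apart in the other direction in 0 members, as in 3.21% of all genes. Levels of different genes are not compared, since each probe set has its own brightness.

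**Figure D1:**
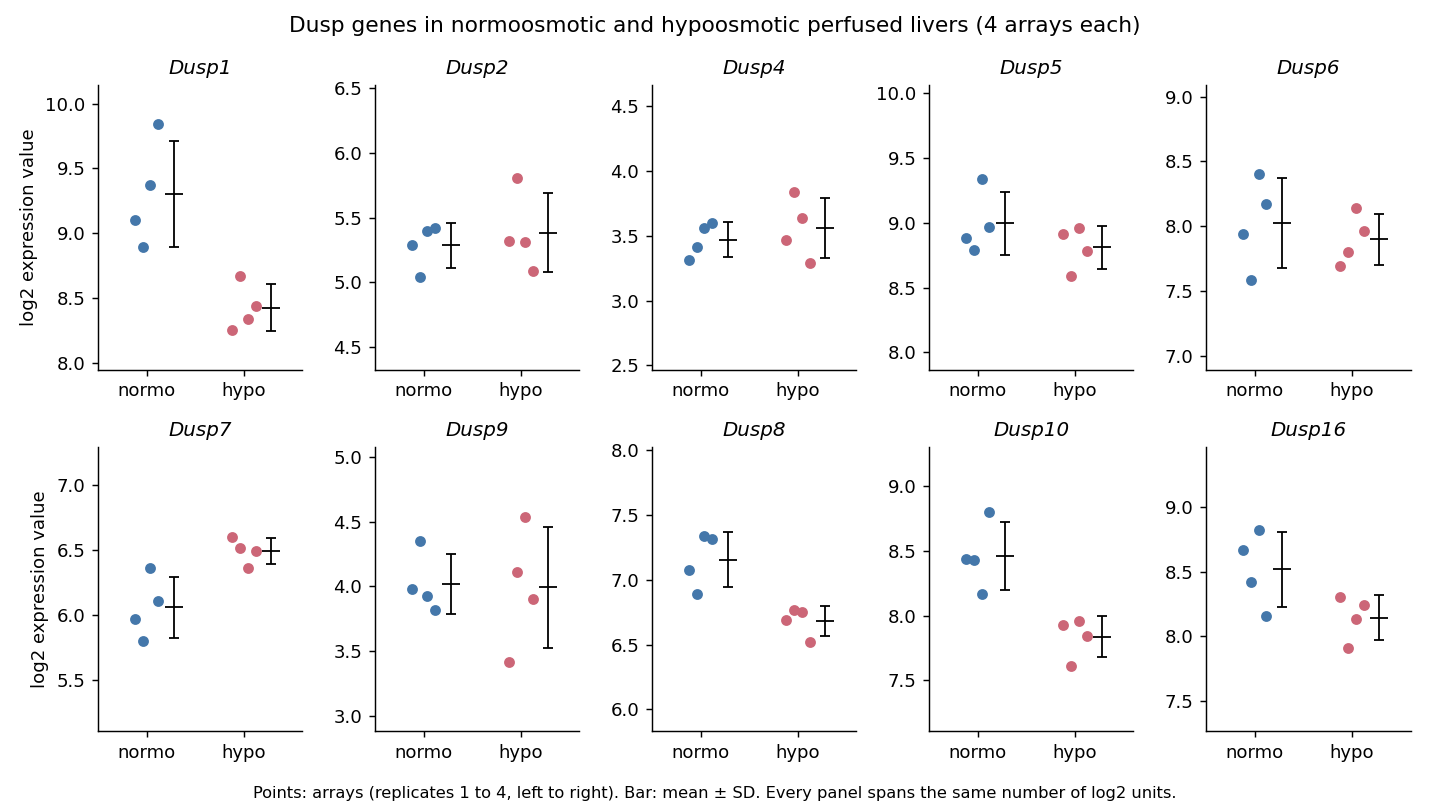
Log2 expression value of each of the 10 Dusp genes on every array, normoosmotic in blue and hypoosmotic in red, with replicates 1 to 4 from left to right and the mean ± SD beside them. The hypoosmotic points lie below all normoosmotic points for Dusp1, Dusp8 and Dusp10, while for Dusp7 the lowest hypoosmotic point equals the highest normoosmotic one at 6.36.

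Among the nuclear phosphatases, Dusp1 (probe set 10732652), which acts on p38 and JNK as well as ERK, read 9.10, 8.89, 9.37 and 9.84 in normoosmotic replicates 1 to 4 and 8.25, 8.67, 8.34 and 8.44 in hypoosmotic replicates 1 to 4. All hypoosmotic values lay below all normoosmotic ones, with a gap of 0.22 log2 units between the groups, and the normoosmotic values spread more widely than the hypoosmotic ones. The mean was 9.30 ± 0.41 against 8.43 ± 0.18 (SD, n = 4 each). Dusp1 fell by 0.88 ± 0.18 (SE) on the log2 scale, with a 95% interval from −1.26 to −0.49, which puts the normoosmotic level 1.83-fold above the hypoosmotic one (1.40 to 2.40; limma, adjusted p = 0.0258). The exact two-sided permutation test over the 70 assignments of arrays gave 0.0286, the smallest p that 4 against 4 allow. The call was lost without normoosmotic replicate 1 (adjusted p = 0.0508) or 3 (0.0799) and without hypoosmotic replicate 1 (0.0707), 2 (0.0558) or 3 (0.0752), while the change stayed between −1.01 and −0.70.

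Dusp5, a nuclear phosphatase selective for ERK, read 8.88, 8.79, 9.34 and 8.97 in normoosmotic and 8.91, 8.59, 8.96 and 8.78 in hypoosmotic replicates 1 to 4. The groups overlapped, and the log2 change of −0.19 ± 0.14 (SE) did not pass the test (adjusted p = 0.609). Dusp2, known mainly from blood cells, read 5.29, 5.04, 5.40 and 5.42 against 5.32, 5.81, 5.31 and 5.09. Its highest value was that of hypoosmotic replicate 2, and its log2 change was 0.10 ± 0.15 (adjusted p = 0.840). Dusp4, which acts on ERK and JNK in the nucleus, read 3.31, 3.41, 3.56 and 3.60 against 3.47, 3.84, 3.64 and 3.29. Its log2 change was 0.09 ± 0.13 (adjusted p = 0.823). The mean of Dusp4 over the 8 arrays, 3.52, lay below the median of 4.65 over all genes, so its values may be background. The 95% intervals of Dusp2 (−0.24 to 0.43), Dusp4 (−0.20 to 0.38) and Dusp5 (−0.48 to 0.11) all included 0, and of the nuclear group 1 of 4 members was called.

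Of the cytoplasmic phosphatases that prefer ERK, none was called (limma; 1 of 3 had an unadjusted p under 0.05). Dusp6, a feedback phosphatase that ERK signalling itself induces, read 7.94, 7.58, 8.40 and 8.17 in normoosmotic replicates 1 to 4 and 7.69, 7.80, 8.14 and 7.96 in hypoosmotic ones. All hypoosmotic values lay within the normoosmotic range, and its log2 change was −0.13 ± 0.17 (SE; 95% interval −0.49 to 0.24; adjusted p = 0.800). Dusp9, a phosphatase of ERK best known from placenta, read 3.98, 4.35, 3.93 and 3.82 against 3.42, 4.11, 4.54 and 3.90. It was the member with the widest hypoosmotic spread (SD 0.47), and its log2 change was −0.03 ± 0.20 (adjusted p = 0.972). The mean of Dusp9 over the 8 arrays, 4.01, lay below the median of 4.65 over all genes, so its values may be background.

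Dusp7 (probe set 10912837), a close relative of Dusp6, was the member with the largest value in the other direction. It read 5.97, 5.80, 6.36 and 6.11 in normoosmotic replicates 1 to 4 and 6.60, 6.52, 6.36 and 6.49 in hypoosmotic ones, so that the groups touched at 6.36. The mean was 6.06 ± 0.24 against 6.49 ± 0.10 (SD), a log2 change of 0.43 ± 0.13 (SE) with a 95% interval of 0.15 to 0.71. That corresponds to 1.35-fold (1.11 to 1.64) and did not pass over all genes (adjusted p = 0.117; unadjusted p = 0.0055). Over 18 alternative analyses its adjusted p lay between 0.0606 and 0.268.

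**Figure D2:**
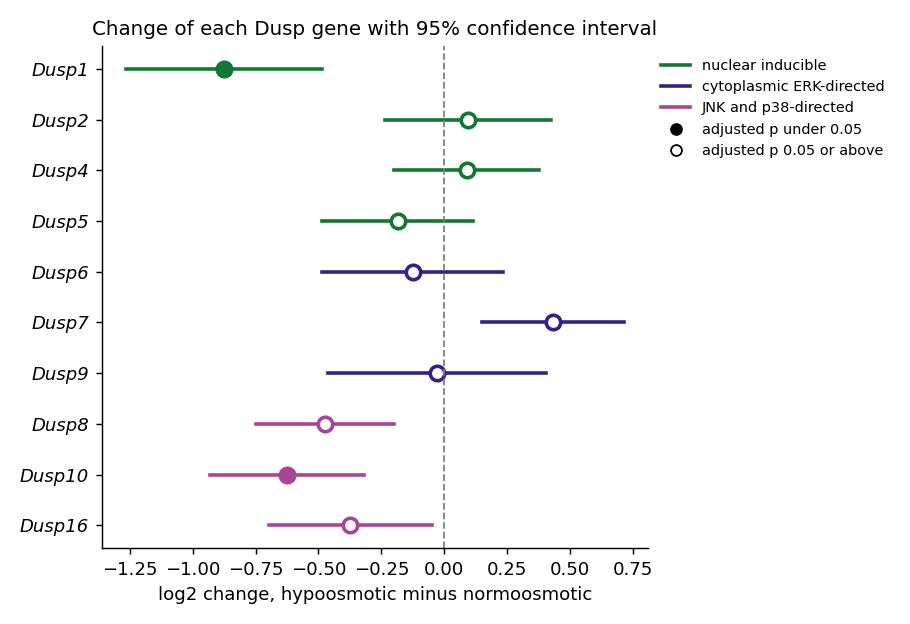
Log2 change of each Dusp gene, hypoosmotic minus normoosmotic, with its 95% confidence interval from limma; colours give the 3 groups of phosphatases and filled points an adjusted p under 0.05 over all genes. Dusp1 at −0.88 and Dusp10 at −0.63 are filled, and all 3 members that prefer JNK and p38 have intervals below 0 before adjustment.

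The 3 phosphatases that prefer JNK and p38 had log2 changes between −0.63 and −0.37, and 1 of them, Dusp10, was called. Dusp10 (probe set 10766463) read 8.44, 8.43, 8.17 and 8.80 in normoosmotic replicates 1 to 4 and 7.93, 7.61, 7.96 and 7.84 in hypoosmotic ones. The groups did not overlap, with a gap of 0.21 log2 units. From 8.46 ± 0.26 to 7.83 ± 0.16 (SD, n = 4 each), Dusp10 fell by 0.63 ± 0.14 (SE), with a 95% interval from −0.93 to −0.32, a normoosmotic level 1.54-fold above the hypoosmotic one (1.25 to 1.91; limma, adjusted p = 0.0422). This call lay close to the threshold. It was lost without normoosmotic replicate 1 (0.0947), 2 (0.0716) or 4 (0.0830) and without hypoosmotic replicate 1 (0.0685), 2 (0.140), 3 (0.0659) or 4 (0.0602). It was also lost with p-values adjusted over all probe sets of the table (0.0584).

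Dusp8 (probe set 10726929), a JNK and p38 phosphatase best known from brain and heart, read 7.08, 6.89, 7.34 and 7.32 in normoosmotic and 6.69, 6.77, 6.75 and 6.52 in hypoosmotic replicates 1 to 4. Its groups were apart by 0.12 log2 units, and its log2 change of −0.48 ± 0.13 (SE; 95% interval −0.75 to −0.20) had an adjusted p of 0.0757. Without normoosmotic replicate 2 the change was −0.56 and passed (adjusted p = 0.0481). Dusp16, a phosphatase that moves between nucleus and cytoplasm and anchors JNK, read 8.67, 8.42, 8.82 and 8.16 against 8.30, 7.91, 8.13 and 8.24. Here normoosmotic replicate 4 lay within the hypoosmotic range, and the log2 change of −0.37 ± 0.15 (95% interval −0.70 to −0.05) had an adjusted p of 0.259.

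Whether Dusp1 moved further than the other members was tested on the difference between both genes within each array, which removes any shift of the whole array. Relative to Dusp7 the log2 difference of Dusp1 was 1.31 ± 0.20 (SE) lower in hypoosmotic samples, relative to Dusp2 and Dusp4 it was 0.97 ± 0.18 lower in each case, and relative to Dusp6 it was 0.75 ± 0.20 lower. In these comparisons and against Dusp8 (−0.40 ± 0.16) the 4 hypoosmotic differences lay below the 4 normoosmotic ones, and each had an exact two-sided permutation p of 0.0286. After adjustment over the 9 comparisons these 5 had p = 0.0514 (exact permutation test, n = 4 per group), so 0 of 9 passed 0.05. Because 0.0286 is the smallest p that 4 against 4 allow, 5 fully separated comparisons of 9 could not have passed. Against Dusp10 the shift was −0.25 ± 0.24 (exact permutation p = 0.286), against Dusp16 −0.50 ± 0.35 (exact p = 0.171), against Dusp5 −0.69 ± 0.26 (exact p = 0.0571) and against Dusp9 −0.85 ± 0.38 (exact p = 0.114). A greater fall of Dusp1 than of Dusp10 was therefore not resolved by 4 arrays per group.

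**Figure D3:**
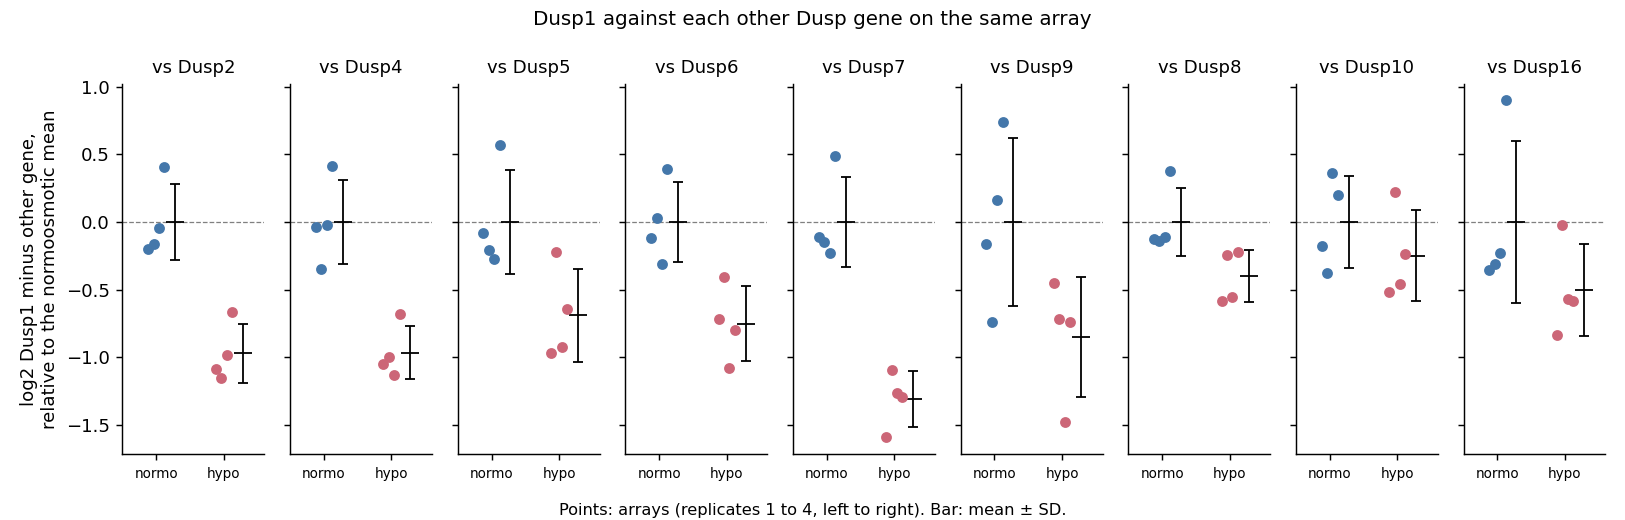
Log2 value of Dusp1 minus that of each of the other 9 Dusp genes on the same array, set to a normoosmotic mean of 0, with the 4 normoosmotic arrays in blue, the 4 hypoosmotic arrays in red and the mean ± SD beside them. The groups are apart against Dusp2, Dusp4, Dusp6, Dusp7 and Dusp8, with the largest shift against Dusp7 (−1.31), and they overlap against Dusp5, Dusp9, Dusp10 and Dusp16.

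With Dusp10 as the base, a choice made after its call was seen, the shift was −1.06 ± 0.23 (SE) against Dusp7. Against Dusp2 it was −0.72 ± 0.26, and against Dusp4, whose values may be background, −0.72 ± 0.22. In these 3 of 8 comparisons the groups were again apart (exact permutation p = 0.0286 each, 0.0762 adjusted over 8 comparisons). Against Dusp8 and Dusp16, which share its preference for JNK and p38, the shifts were −0.15 ± 0.19 and −0.25 ± 0.27 with overlapping groups. The members also differed between samples of one group. Normoosmotic replicate 2 held the lowest normoosmotic value of 6 members (Dusp1, Dusp2, Dusp5, Dusp6, Dusp7 and Dusp8). Normoosmotic replicate 3 held the highest of 5 (Dusp5, Dusp6, Dusp7, Dusp8 and Dusp16), and normoosmotic replicate 4 that of 4, Dusp1 and Dusp10 among them. On average the members lay 0.17 below their group means in normoosmotic replicate 2 and 0.14 above in replicate 3, where all genes together lay within 0.01 of theirs.

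Over the whole series 287 of 14506 genes were called, 206 lower and 81 higher, a share of 1.98%, and 1199 (8.27%) had groups that did not overlap. Clock genes split the normoosmotic samples, with Bmal1 at 4.85 and 4.75 in replicates 1 and 3 against 7.18 and 7.32 in replicates 2 and 4, and between 6.42 and 7.15 in hypoosmotic samples. Dbp, a clock output gene, read 8.89 and 9.04 in normoosmotic replicates 1 and 3 and 6.22 and 6.31 in replicates 2 and 4. It also differed among hypoosmotic samples, at 5.96 and 6.43 in replicates 1 and 2 against 7.98 and 8.08 in replicates 3 and 4. With a score of 4 clock genes as a covariate the change of Dusp1 was −0.91 (adjusted p = 0.0583) and that of Dusp10 −0.70 (0.0514), where the values without it were −0.88 and −0.63. Without normoosmotic replicates 1 and 3, left out after the data were seen, the changes were −0.94 (0.185) and −0.78 (0.112), and 21 genes in all were called.

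The hepatocyte markers were bright on every array, with a mean log2 value over 8 genes of 12.13 to 12.21 in normoosmotic and 12.04 to 12.22 in hypoosmotic samples. T cell markers, listed because blood cells transcribe Dusp2, had a mean over 8 genes of 3.14 to 3.19 in normoosmotic and 3.20 to 3.44 in hypoosmotic samples, and 6 of the 8 lay in the dimmest 25% of genes. The groups did not overlap in that mean, but they nearly touched, at 3.19 and 3.20. The mean includes Cd4, by far the brightest of the 8, which read 6.17 to 7.13 in normoosmotic and 6.31 to 7.49 in hypoosmotic samples. Without Cd4 the groups overlapped in the mean of the remaining genes, hypoosmotic replicate 4 lying below normoosmotic replicates 2 and 3. By limma 0 of the 8 genes were called, and 1 had an unadjusted p under 0.05, Cd3d with a log2 change of 0.31. The part of T cell RNA in the values of Dusp2 was not tested. Macrophage markers (10 genes) lay between 6.46 and 6.98 against 6.56 and 7.14, and sinusoidal endothelial markers (5 genes) between 7.60 and 8.05 against 7.69 and 8.03. Stellate cell markers (9 genes) lay between 6.29 and 6.91 against 6.29 and 6.68. Cholangiocyte (5 genes), B cell (3), NK cell (7) and mesothelial (2) lists overlapped between groups as well and held 0 called genes (limma; 1, 0, 1 and 0 with an unadjusted p under 0.05). Of the 6 neutrophil markers, Fcgr3a, which encodes an Fc receptor that macrophages also carry, rose by 0.68 ± 0.16 (SE; adjusted p = 0.0428), and it kept its call in 7 of 18 alternatives. Red cell markers (3 genes) lay between 4.52 and 5.08 against 4.26 and 4.87, Hbb having a log2 change of −0.85 (adjusted p = 0.279). All 3 changes lay below 0, and 2 genes, Hbb and Alas2, had an unadjusted limma p under 0.05. Alas2 had a change of −0.23 (adjusted p = 0.337), and its groups did not overlap. In whole liver, fewer cells of a type and less RNA per cell cannot be told apart.

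The kinases that these phosphatases act on were read from the same fit. Mapk8, which encodes JNK, was the 1 MAP kinase called of 11 measured. It read 6.95, 6.48, 6.84 and 6.78 in normoosmotic and 6.17, 5.91, 6.15 and 6.14 in hypoosmotic replicates 1 to 4. Mapk8 fell by 0.67 ± 0.13 (SE; limma, adjusted p = 0.0186), and the groups did not overlap. The other JNK genes Mapk9 and Mapk10 had log2 changes of 0.18 (adjusted p = 0.735) and −0.06 (0.928). The p38 gene Mapk14 had one of 0.35 (0.244), and Mapk7, which encodes a large kinase of the ERK family, one of −0.61 (0.0866).

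One tier up, Map2k7, whose product phosphorylates JNK alone, was the 1 kinase called of 7 MAP kinase kinases. It read 6.01, 6.00, 6.00 and 5.73 in normoosmotic and 5.17, 5.35, 5.29 and 5.40 in hypoosmotic replicates 1 to 4. Map2k7 fell by 0.63 ± 0.11 (SE; limma, adjusted p = 0.0141). Map2k4, which acts on both JNK and p38, had a log2 change of −0.40 (adjusted p = 0.222), and the p38 activators Map2k3 and Map2k6 had changes of −0.06 and 0.13 (0.908 and 0.663). For the ERK activators Map2k1 and Map2k2 the changes were −0.17 and 0.12 (0.547 and 0.715). Mapk8 kept its call in 13 of 18 alternatives (highest adjusted p = 0.274). Map2k7 kept it in 15 (highest 0.224), in 1 of them with an adjusted p that rounds to 0.05.

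Of 18 measured Raf and MAP kinase kinase kinases 0 were called (limma; 4 had an unadjusted p under 0.05). Taok1 and Taok2, kinases upstream of p38 and JNK, had log2 changes of −0.44 (adjusted p = 0.0886) and −0.40 (0.143). The kinases that MAP kinases activate held 0 called genes of 8, and 0 with an unadjusted p under 0.05. In that list Mapkapk5 had a change of −0.25 (0.376) and Rps6ka2 one of 0.26 (0.502). Among 33 ligands, receptors and adaptors upstream of ERK, Erbb3, a receptor of neuregulins, was the 1 called gene and rose by 0.67 ± 0.13 (SE; adjusted p = 0.0193). Its call was kept in 13 of 18 alternatives.

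Of 17 transcripts that ERK signalling induces 1 was called, and 7 had an unadjusted p under 0.05 (limma). The list had 7 changes below 0 and 10 above, with a median of 0.01. Myc fell by 0.83 ± 0.13 (SE; limma, adjusted p = 0.00581), from 9.34 ± 0.13 to 8.51 ± 0.19 (SD, n = 4 each). The Ets factor genes Etv4 and Etv5, like Dusp6 long-standing readouts of ERK activity, had changes of 0.01 and −0.05 (adjusted p = 0.984 and 0.901). Their means over the 8 arrays, 3.93 and 3.08, lay below the median of 4.65 over all genes, so both may be background. Among brighter genes of the list, Egr1, Epha2 and Plaur had changes of −0.43, −0.48 and −0.41 (limma, adjusted p = 0.172, 0.115 and 0.084). Fosl2 had one of 0.29 (0.288). Of 10 measured genes listed as feedback regulators of ERK outside the Dusp family, 1 was called. Without adjustment 5 had a limma p under 0.05, and 8 changes lay below 0 and 2 above. The called gene, Ier3, is known to sustain ERK by hindering its dephosphorylation and so is no inhibitor. Ier3 fell by 0.64 ± 0.13 (adjusted p = 0.0229). Ier3 read between 9.65 and 10.01 in normoosmotic and between 9.10 and 9.50 in hypoosmotic samples. Rasa2 had the lowest change of the list, −0.66 (adjusted p = 0.0725), and its groups did not overlap. The Sprouty genes Spry1, Spry2 and Spry4 had changes of −0.28, −0.10 and −0.11 (0.307, 0.857 and 0.789). The means of Spry2 and Spry4 over the 8 arrays, 4.31 and 4.40, lay below the median of 4.65, so both may be background. The call of Ier3 was lost in 8 of 18 alternatives and that of Myc in 1.

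**Figure D4:**
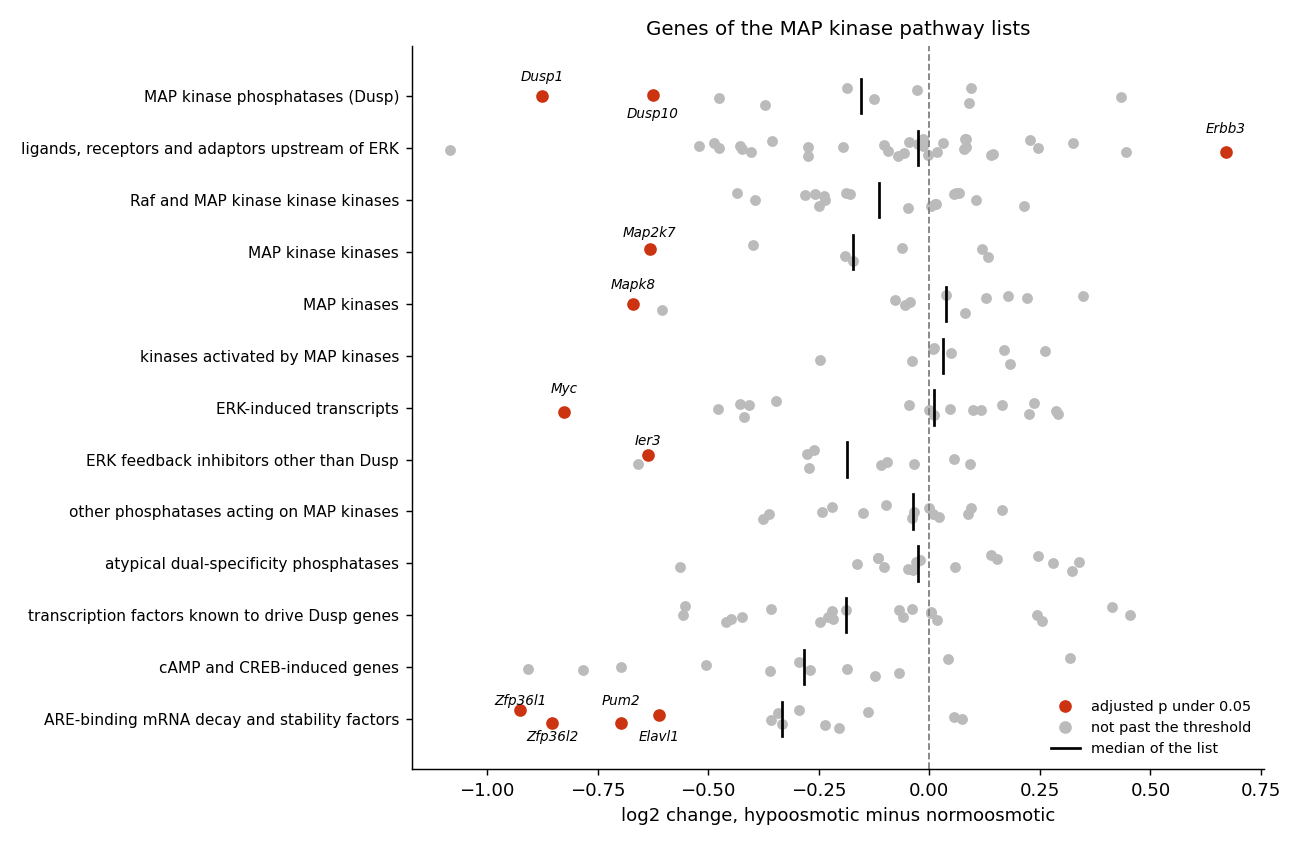
Log2 change, hypoosmotic minus normoosmotic, of every measured gene of the Dusp family and of 12 lists around it, with genes past an adjusted p of 0.05 in red and named, other genes in grey and the median of each list as a black line; points are spread vertically only to separate them. The called genes are Dusp1, Dusp10, Map2k7, Mapk8, Myc, Ier3, Zfp36l1, Zfp36l2, Pum2 and Elavl1 to the left of 0 and Erbb3 to the right. The list of glucocorticoid-induced genes, with 4 called higher and 3 called lower, is not drawn.

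Other phosphatases did not pass. Of 16 measured atypical dual-specificity phosphatases, relatives that mostly lack the kinase-binding part, 0 were called (limma; 1 had an unadjusted p under 0.05). That gene was Dusp11, an RNA phosphatase, with a log2 change of −0.56 (adjusted p = 0.134), followed by Styxl1 with 0.32 (0.352). Of 14 tyrosine and serine/threonine phosphatase genes that act on MAP kinases 0 were called (3 with an unadjusted p under 0.05), and the subunit genes Ppp2r2a and Ppp2r2d of protein phosphatase 2A had changes of −0.36 (0.139) and −0.38 (0.251).

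Genes known to govern Dusp transcription or transcript stability were counted in the same way. Of 21 transcription factors 0 were called (limma; 8 had an unadjusted p under 0.05), with log2 changes of −0.45 for Ets1 (adjusted p = 0.0747), −0.55 for Jun (0.0874) and −0.56 for Creb1 (0.103), the factor that binds the cAMP response element. Nr3c1, the glucocorticoid receptor, had a change of −0.25 (0.340). Of 12 genes induced by cAMP through Creb 0 were called (5 with an unadjusted p under 0.05), those with the smallest p being Pde4d at −0.51 (0.0731) and Pck1 at −0.78 (0.0963). G6pc1, which encodes a glucose-6-phosphatase subunit, had the lowest log2 change of this list, −0.91 (0.109). Of 17 glucocorticoid-induced genes 4 were called higher and 3 lower. Angptl4 rose by 1.44 ± 0.16 (SE), Lcn2 by 1.52 ± 0.19 and Ddit4 by 0.66 ± 0.13, while Tat fell by 0.76 ± 0.11 and Igfbp1 by 0.66 ± 0.10 (adjusted p between 0.00159 and 0.0213). Pdk4 and Cebpd were the other called genes. Tsc22d3 and Fkbp5, which the receptor drives directly, had changes of −0.03 (0.968) and 0.53 (0.186).

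Of 13 measured factors of mRNA decay and stability, a list built around proteins that bind AU-rich elements, 4 were called lower and 0 called higher. Zfp36l1 and Zfp36l2, which direct such transcripts to decay, fell by 0.93 ± 0.12 (SE; limma, adjusted p = 0.00248) and 0.85 ± 0.14 (0.00936). Zfp36l1 read between 10.98 and 11.39 in normoosmotic and between 10.24 and 10.39 in hypoosmotic samples. Elavl1, whose product is known to bind and stabilise the Dusp1 transcript, fell by 0.61 ± 0.13 (0.0264), and Pum2, a repressor of translation, by 0.70 ± 0.14 (0.0208). Zfp36, which is known to target the Dusp1 transcript for decay, had a change of 0.08 (0.839). The median change of this list was −0.33. Elavl1 kept its call in 10 of 18 alternatives, Pum2 in 13, Zfp36l2 in 17 and Zfp36l1 in all 18.

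In all, 16 of 193 distinct genes in the 13 lists beside the Dusp family were called, 11 lower and 5 higher, or 8.29%, beside 1.98% of all genes. The lists were drawn up with earlier results of these samples known and include genes already seen to change, so that share is no independent evidence. Without normoosmotic replicate 3 the count was 8, without hypoosmotic replicate 2 it was 9 and without hypoosmotic replicate 3 it was 10.

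The genes whose values over the 8 arrays ran most closely with Dusp1 were Klhl5 (Pearson r = 0.978), Rab3gap2 (0.966), Tor2a (0.961), Rnf19a (0.954) and Tbc1d2b (0.953). Their own log2 changes lay between −0.52 and −0.15 and were not called. Those running most closely against it were Hsd3b2 (−0.971) and Vom1r34 (−0.960). For Dusp10 the closest were Zfp36l2 (0.976), Siah2 (0.973), Jmjd1c (0.968), Tsc22d2 (0.966) and Flii (0.958), and Slc26a9 (−0.955) and Chit1 (−0.945) ran against it. Of these, Zfp36l2 and Jmjd1c fell, each by 0.85 ± 0.14 (SE; adjusted p = 0.00936 and 0.00866). Hsd3b2, Vom1r34, Slc26a9 and Chit1 had means below the median of 4.65 over all genes in both groups, so their values may be background. The dimmest was Vom1r34, with means of 1.48 in normoosmotic and 1.70 in hypoosmotic samples. After subtraction of the group means r was 0.924 for Dusp10 with Zfp36l2 and 0.920 for Dusp1 with Klhl5. Between both called members r was 0.793 over the arrays and 0.238 without the group means, and between Dusp1 and Dusp8 0.924 and 0.730. These are descriptions over 8 points that share their arrays, picked as the extremes among 14505 genes.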

How the data were processed

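The deposited table holds the authors' log2 expression values for 27596 probe sets on 8 arrays, with 2 decimals, and the log2 scale was read from the values. Per the submitters' processing notes, Transcriptome Analysis Console 4.0 was used. How probes were summarised and normalized is not given in the sources used here. Array medians lay between 4.05 and 4.16. Arrays have no read depth, and their number limits the precision. No detection call was used, so dim values may be background.

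Probe sets with 1 symbol in the platform annotation were named by gene ID through RefSeq (GRCr8), and the brightest probe set of each gene was kept, giving 14506 genes. Groups were compared with limma 3.58.1 in R 4.3.3 (lmFit, eBayes, two-sided), with Benjamini-Hochberg adjustment over all genes. The fit was tested on simulated data. Differences between members were compared by exact permutation in scipy 1.17.1. Named were all members and, of each list, up to 5 called genes with the smallest p or else the 2 with the smallest p, and the 5 genes most like and 2 most unlike each called member. Further genes given for their known role were chosen after their values were seen. Members and lists were chosen with earlier results of these data known. Alternatives covered filtering, normalization, prior, array weights, a replicate block, probe set choice, a clock covariate, thresholds and single arrays left out.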

Additional observations from a re-analysis of the deposited data

Results flagged for a closer look

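Among 57 genes, the Dusp members and the genes picked from the lists, 114 groups of 4 values were examined for a sample far from the other 3, and 5 such samples were found, none of them in a Dusp gene. Chance gives about 1 in 20 groups. Map2k7 read 5.73 in normoosmotic replicate 4 against 6.00 to 6.01 in the others. Mapk8 read 5.91 in hypoosmotic replicate 2 against 6.14 to 6.17, and Pum2 read 6.64 in the same sample against 6.98 to 6.99. The T cell marker Cd3g read 1.46 in normoosmotic replicate 4 against 1.98 to 2.03 and 2.79 in hypoosmotic replicate 1 against 2.06 in each of the others.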

How the results depend on the processing

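The count of 287 called genes was 92 with the clock covariate, 21 without both normoosmotic samples of negative clock score (chosen after seeing the data), 601 at an adjusted p under 0.1 and 68 under 0.01, and 81 to 365 without 1 array. The count of 2 called members was 1 with the replicate block (Dusp1) and 1 over all probe sets (Dusp1). It was 0 with the clock covariate and 0 without both normoosmotic samples of negative clock score. With the clock covariate, and also without both samples, 4 members had an unadjusted limma p under 0.05. With the replicate block the number was 5, and over all probe sets it was 5. Hypoosmotic replicates 3 and 4 also had negative scores (−0.52 and −0.06) and were kept. The count of called members was 0 at 0.01, and 0 to 2 without 1 array. The 16 called list genes were 4 without those 2 samples and 8 to 18 without 1 array. The log2 change of Dusp1 was −0.91 with the clock covariate and −0.94 without both samples, where its call was lost, and −1.01 to −0.70 without 1 array. For Dusp10 it was −0.63 with the replicate block (adjusted p = 0.0588) and over all probe sets (0.0584), −0.70 with the clock covariate and −0.78 without both samples, none of them past the threshold, and −0.72 to −0.51 without 1 array. For Dusp8 it was −0.56 to −0.41 without 1 array. Dusp1 and Dusp10 were both called with array weights, a robust trended prior, quantile normalization, centring on array medians, averaged probe sets or the dimmest 25% of genes removed.

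Changes near 0 turned sign: Dusp2 to −0.05 (up to 0.19 without 1 array) and Dusp4 to −0.0033 (up to 0.18) without hypoosmotic replicate 2. Dusp6 (down to −0.27 without 1 array) turned to 0.00083 without normoosmotic replicate 3 and 0.02 without both normoosmotic samples of negative clock score. Dusp9 (down to −0.21 without 1 array) turned to 0.08 without normoosmotic replicate 2, and to 0.16 and 0.0033 without hypoosmotic replicates 1 and 4. The mesothelial marker Wt1 (down to −0.06 without 1 array) turned to 0.01 with array weights, 0.06 and 0.02 without normoosmotic replicates 2 and 4, and 0.02 and 0.01 without hypoosmotic replicates 2 and 4. The cause was not tested in any of these. The shifts of Dusp1 against each other member kept their direction in all 11 alternatives run. Replicate numbers gave no sign of pairing: the deviations of same-numbered arrays correlated at 0.028 to 0.173, with 1 of 4 pairs over 0.1, and 3 of 8 arrays correlated best with their own number. With the replicate block 256 genes were called.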
